A study of Mus musculus with 244 samples.

Results

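The 10 CC chemokine genes Ccl2, Ccl3, Ccl4, Ccl5, Ccl6, Ccl7, Ccl8, Ccl9, Ccl12 and Ccl24 were followed in single macrophages of the mouse aortic arch. They are 10 of the 24475 genes of the deposited RPKM table (reads scaled by transcript length and library size), found by their symbols in the gene annotation that came with it. In the regression group, arches of Apoe-/- donors that had eaten high fat diet over 16 weeks were transplanted into WT hosts on chow, and cells were collected 3 days later. The baseline group held cells of Apoe-/- donors after the same 16 weeks, with no transplantation. Cells positive for CD45, CD11b and F4/80 were sorted in both groups, and each library was made from 1 cell. After 3 pairs of near-copy baseline libraries were averaged and 3 regression cells with fewer than 1000 genes were left out, 113 regression and 125 baseline cells remained. The 2 groups differ in host genotype, diet, surgery and the listing of Apoe by the cells (given below) together, and these cannot be told apart.

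CC chemokines are small secreted proteins that attract leukocytes through G protein-coupled receptors. The monocyte chemoattractant proteins Ccl2, Ccl7 and, in mouse, Ccl12 signal through Ccr2, the receptor by which classical monocytes leave the bone marrow and enter tissue such as the arterial wall. Ccl8 belongs to the same subfamily and in mouse acts mainly on Ccr8. Ccl3 and Ccl5 are ligands of Ccr1. Activated macrophages make Ccl3 and its neighbour Ccl4, and T cells are a common source of Ccl5. Ccl6 and Ccl9 are rodent chemokines that bind Ccr1, and Ccl24 (eotaxin-2) attracts eosinophils through Ccr3.

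All members but Ccl24 lie in 2 clusters on chromosome 11 (GRCm38, GENCODE vM21). The first holds Ccl2 (82035571 to 82037453), Ccl7 (82045712 to 82047525), Ccl12 (82101845 to 82103400) and Ccl8 (82115185 to 82116799), all on the plus strand. The second holds Ccl5 (83525778 to 83530518), Ccl9 (83572919 to 83578636), Ccl6 (83587882 to 83593087) and Ccl3 (83647844 to 83649355) on the minus strand and Ccl4 (83662584 to 83664683) on the plus strand. Ccl24 lies on the minus strand of chromosome 5 (135569937 to 135573049). Neighbours stand 8258 bases apart for Ccl2 and Ccl7, 9245 for Ccl9 and Ccl6, 13228 for Ccl3 and Ccl4, and 11784 for Ccl12 and Ccl8. No stretch of 30 bases was shared between the transcripts of any of the 45 pairs of members, and the longest shared run had 25 bases.

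RefSeq promoter windows (GRCm38.p6, 250 bases before to 50 after the transcript start) were at hand for 5 of the 10 members. The windows of the neighbours Ccl6 and Ccl9 are shown because these genes varied together from cell to cell, and those of the neighbours Ccl12 and Ccl8 because they did so far less. Each is written along its own strand, and capitals mark every stretch of 10 or more bases that it shares with its neighbour's window. Ccl6 covers chr11:83593038-83593337 on the minus strand, Ccl9 chr11:83578587-83578886 on the minus strand, Ccl12 chr11:82101595-82101894 on the plus strand and Ccl8 chr11:82114935-82115234 on the plus strand.
Ccl6: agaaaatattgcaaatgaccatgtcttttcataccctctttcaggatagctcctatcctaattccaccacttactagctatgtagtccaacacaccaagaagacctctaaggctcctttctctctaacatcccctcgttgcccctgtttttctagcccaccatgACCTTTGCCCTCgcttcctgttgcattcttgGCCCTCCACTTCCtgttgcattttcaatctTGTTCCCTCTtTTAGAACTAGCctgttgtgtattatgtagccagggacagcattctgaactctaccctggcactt
Ccl9: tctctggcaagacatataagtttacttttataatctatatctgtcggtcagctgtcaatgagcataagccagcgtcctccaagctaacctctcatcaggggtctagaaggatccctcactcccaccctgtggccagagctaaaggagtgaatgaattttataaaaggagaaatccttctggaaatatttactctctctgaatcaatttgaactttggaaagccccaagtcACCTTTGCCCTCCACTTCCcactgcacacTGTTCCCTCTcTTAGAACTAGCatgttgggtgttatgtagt
Ccl12: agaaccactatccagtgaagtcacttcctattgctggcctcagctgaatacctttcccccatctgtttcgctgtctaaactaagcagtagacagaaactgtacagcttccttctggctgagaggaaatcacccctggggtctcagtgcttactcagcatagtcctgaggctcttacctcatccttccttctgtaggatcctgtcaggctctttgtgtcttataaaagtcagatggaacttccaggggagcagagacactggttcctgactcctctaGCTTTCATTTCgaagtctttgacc
Ccl8: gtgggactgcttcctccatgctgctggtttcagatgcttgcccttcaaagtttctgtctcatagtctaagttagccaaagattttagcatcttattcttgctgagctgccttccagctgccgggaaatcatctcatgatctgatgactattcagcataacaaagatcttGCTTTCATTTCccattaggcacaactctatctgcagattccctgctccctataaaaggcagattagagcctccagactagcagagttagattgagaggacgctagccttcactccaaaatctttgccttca
The best local alignment of the Ccl6 and Ccl9 windows spanned 74 columns, of which 78.4% were identical, and lay just before and over the transcript starts. That of Ccl12 and Ccl8 was longer, with 199 columns, of which 60.8% were identical, and it held more identical bases (121 against 58). Whether likeness of windows goes with varying together was not tested. The pairs Ccl2 with Ccl7 and Ccl3 with Ccl4 could not be compared, for lack of windows. Motifs were sought on both strands. The TATA box letters TATAAA were found in 3 of the 5 windows, 31 bases before the start in Ccl12, 32 before it in Ccl8 and farther upstream in Ccl9, against 13.6% of 32851 windows of all genes. The AP-1 letters TGANTCA occurred in the Ccl9 window only, 53 bases before the start, against 7.81% of all windows. The ETS letters AGGAAG were in 3 of the 5 windows, against 35.4% of all. The NF-kB letters, GGG and CC with any 5 bases between them, were in 1 of the 5, that of Ccl9, against 50.8% of all. These are matches of letters and not measured binding.

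A gene was called listed in a cell at RPKM of 1 or more, which is close to 1 read: at the median depth, 1 read was worth from 0.36 RPKM in Ccl9 to 2.10 RPKM in Ccl8 in regression libraries. Depth could be read from the values of 60 of 116 regression libraries (0.392 to 9.86 M reads, median 0.93) and 79 of 128 baseline libraries (0.41 to 8.13 M reads, median 1.05). Kept cells listed 1142 to 4119 genes in regression (median 2360) and 1095 to 4378 at baseline (median 2491). Apoe, which the donors lacked and the hosts carried, was listed in 112 of 113 regression cells and 9 of 125 baseline cells. Its median was 5450 RPKM in regression and 0 at baseline, so differences below also compare cells with and without Apoe transcripts. Cell origin and group cannot be told apart here. At least 3 of 8 macrophage markers were listed in 113 of 113 regression cells and 123 of 125 baseline cells. Of the 3 regression libraries left out, 1 listed the T cell genes Cd3d, Cd3e and Cd4 with 1 of 8 macrophage markers, against its label. Animals are not named in the labels. Each group therefore counts as 1 sample, no p-value is given, and SDs and intervals below describe cells and counting error only. Library numbers fall into 5 stretches of 1 group each (regression 1–20, 93–111 and 168–244; baseline 21–92 and 112–167), so a stretch and its group cannot be told apart, and each difference was taken again between every regression stretch and every baseline stretch (6 pairings).

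The family did not move one way. With a difference defined as mean log2(RPKM + 1) in regression minus that at baseline, 6 of the 10 members were lower by 1 or more (Ccl2, Ccl7, Ccl12, Ccl8, Ccl3 and Ccl4), 3 were higher by 1 or more (Ccl6, Ccl9 and Ccl24), and Ccl5 lay between. All 10 passed a filter on low values, which asked for listing in 5% or more of the cells of at least 1 group. Of the 9299 genes of the table that passed it, 3.17% were lower and 2.43% higher by 1 or more. The median difference was -1.43 over the 10 members and -0.02 over the 9299 genes. With that filter raised to 25%, 6 of the 9 members left were lower, against 7.37% of the 3946 genes left, and 3 were higher, against 5.6%. Ccl6 had the highest mean level of the family in both groups, whereas the second place was held by Ccl9 in regression and by Ccl4 at baseline.

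**Figure D1:**
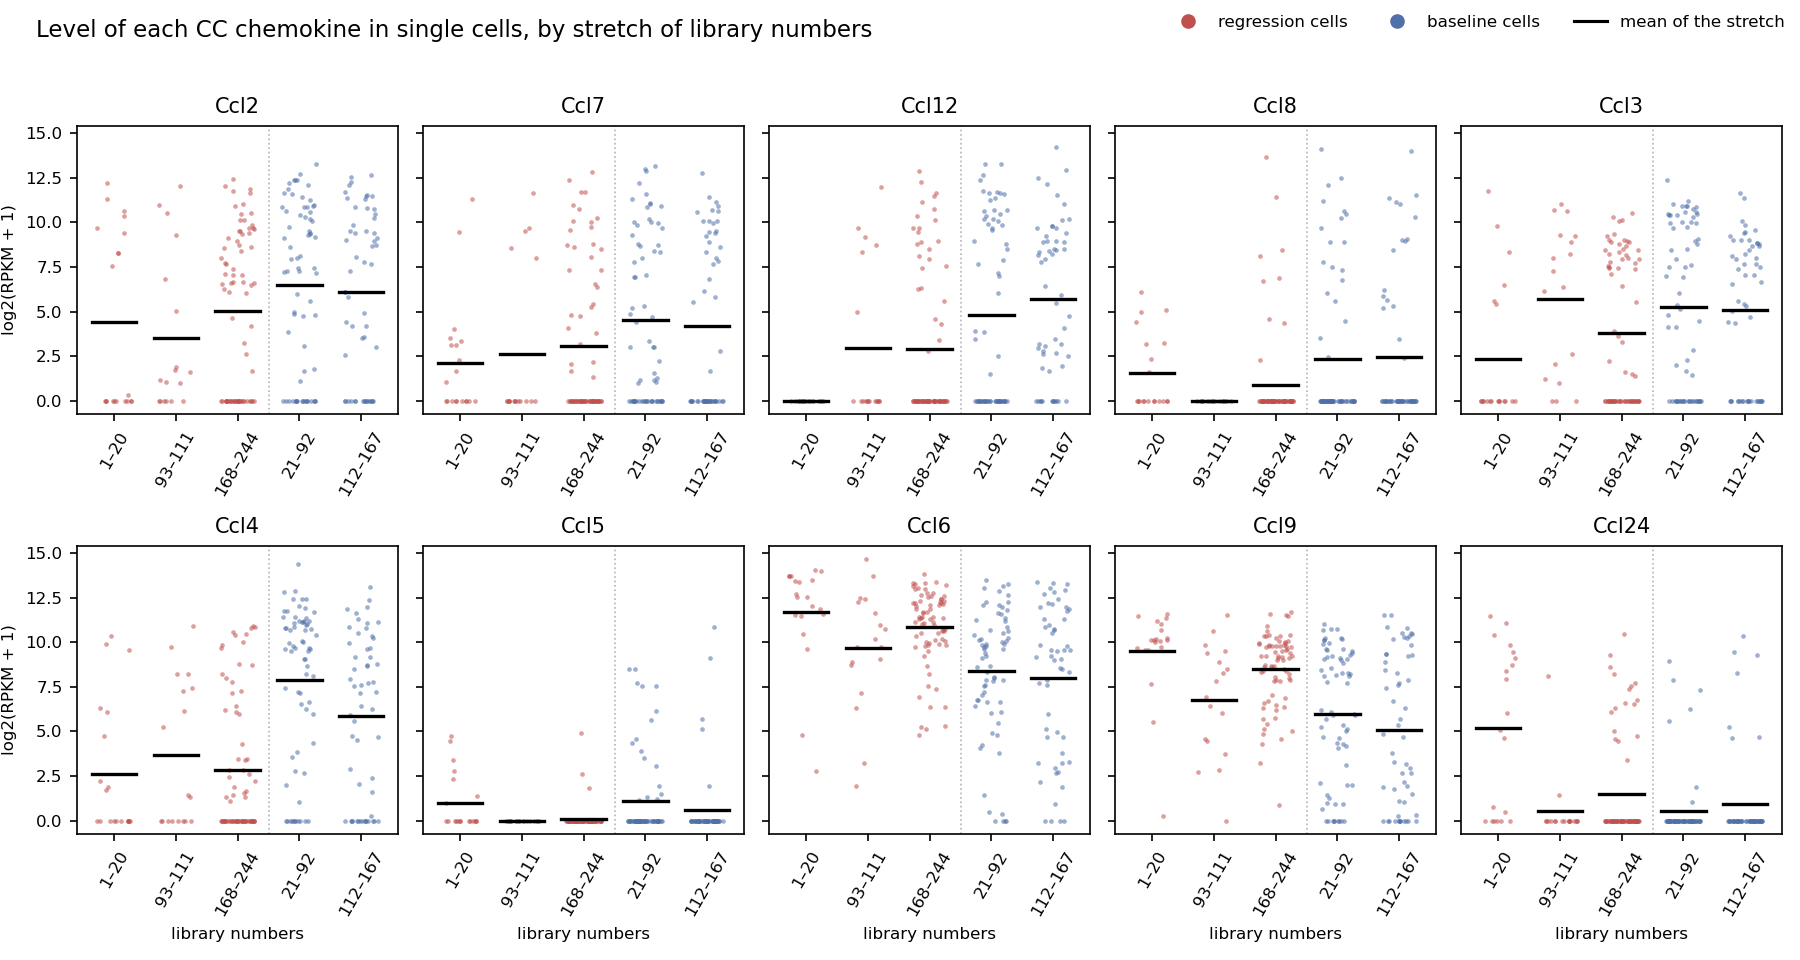
Each point is 1 cell, placed by log2(RPKM + 1) of the named gene (vertical axis) and by its stretch of library numbers (horizontal axis), with regression in red, baseline in blue and a black line at the mean of the stretch. Ccl4 means lie at 2.64 to 3.66 in the 3 regression stretches and at 7.86 and 5.89 in the baseline stretches, while Ccl6 means lie at 9.66 to 11.67 in regression and at 8.37 and 7.99 at baseline.

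Among the monocyte chemoattractants, Ccl12 showed the widest gap. Its RPKM ran from 0 through a median of 0 to 7374 in regression cells, and from 0 through a median of 16.0 to 18659 in baseline cells. Listing cells numbered 32 of 113 regression cells (28.3%, exact 95% interval 20.2 to 37.6%) and 80 of 125 baseline cells (64.0%, 54.9 to 72.4%), so the intervals of the shares did not overlap. Mean log2(RPKM + 1) was 2.40 ± 4.08 (SD over 113 cells) in regression and 5.22 ± 4.78 (SD over 125 cells) at baseline, a difference of -2.82, and it was below 0 in 6 of 6 pairings (-5.73 to -1.87). The cells that did list Ccl12 had medians of 454 RPKM in regression and 490 RPKM at baseline. The levels in listing cells varied more between the baseline stretches than between the groups, with medians of 504.3 RPKM in regression 93–111, 454 RPKM in regression 168–244, 1114 RPKM in baseline 21–92 and 328 RPKM in baseline 112–167. Stretches of 1 group differed as well: Ccl12 was listed in 0 of 20 cells in regression 1–20 (a count of 0 allows up to 15.0%), against 33.3% in 93–111 and 34.7% in 168–244, and in 52.2% and 78.6% of the cells in baseline 21–92 and 112–167. In regression 1–20 the median cell listed 2669 genes, more than in the other regression stretches. At RPKM of 10 or more, Ccl12 was found in 49.3% of the cells of baseline 21–92 and 58.9% of those of 112–167. Low values in baseline 112–167 ran by library number, with log2(RPKM + 1) of 1.82 to 3.18 in 113 to 121 apart from 118.

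Ccl2, the ligand most studied in plaque monocyte recruitment, was listed in 66 of 113 regression cells (58.4%, 48.8 to 67.6%) and 91 of 125 baseline cells (72.8%, 64.1 to 80.4%). Its RPKM ran from 0 through a median of 23.6 to 5573 in regression, and from 0 through a median of 176 to 9750 at baseline. The ranges overlapped over nearly their whole length, and the intervals of the shares overlapped too. Its difference was -1.62 (4.69 ± 4.56 in regression and 6.31 ± 4.66 at baseline, SD over cells) and was below 0 in 6 of 6 pairings. Cells at 1000 RPKM or more made up 18 of 113 in regression and 38 of 125 at baseline. Low Ccl2 values lay side by side in regression 93–111, where numbers 93 to 100 had log2(RPKM + 1) of 0 to 1.87.

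Ccl7 followed Ccl2 at a lower level. Of the cells, 46 of 113 in regression (40.7%, 31.6 to 50.4%) and 70 of 125 at baseline (56.0%, 46.8 to 64.9%) listed it, with a difference of -1.55, below 0 in 6 of 6 pairings. Listing cells had medians of 209 RPKM in regression and 417 RPKM at baseline. In regression 1–20 the gene was listed in 10 of 20 cells but at a median of only 8.57 RPKM in them, against 727 RPKM in the 5 listing cells of 93–111 and 264 RPKM in the 31 of 168–244. That stretch thus held many libraries with a low value of Ccl7 and few with a high one. The low values lay mostly in consecutive library numbers: 12 to 18 had log2(RPKM + 1) of 1.66 to 4.02. Whether such runs of low values reflect expression in the cells was not tested.

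Ccl8 was concentrated in a handful of cells. Only 17 of 113 regression cells (15.0%, 9.02 to 23.0%) and 36 of 125 baseline cells (28.8%, 21.1 to 37.6%) listed it. Its highest cell reached 12973 RPKM in regression and 17702 RPKM at baseline, and the highest cell held 77.2% of all Ccl8 RPKM in regression and 26.7% at baseline. The difference was -1.53, below 0 in 6 of 6 pairings. No cell of regression 93–111 listed it (0 of 18, for which a count of 0 allows up to 16.7%), and the 8 listing cells of regression 1–20 reached at most 68.4 RPKM. Those 8 were library number 1 and the consecutive numbers 12 to 18.

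Of the pair of macrophage inflammatory proteins, Ccl4 differed more than Ccl3, and its difference was the largest of the family with all stretches in. Without baseline 21–92 it was -2.96, behind Ccl12 (-3.33) and Ccl9 (3.32). Its RPKM ran from 0 through a median of 0 to 1918 in regression, and from 0 through a median of 402 to 21238 at baseline. The gene was listed in 55 of 113 regression cells (48.7%, 39.2 to 58.3%) and 98 of 125 baseline cells (78.4%, 70.2 to 85.3%), so the share intervals did not overlap. Cells that listed it also had less of it in regression, with medians of 71.4 RPKM in regression and 808 RPKM at baseline. The difference was -4.05 (2.93 ± 3.83 in regression and 6.98 ± 4.55 at baseline, SD over cells), below 0 in 6 of 6 pairings (-5.23 to -2.23). At 1000 RPKM or more there were 9 of 113 regression cells and 45 of 125 baseline cells.

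Ccl3 differed less and less evenly. It ran from 0 through a median of 1.8 to 3441 RPKM in regression, and from 0 through a median of 63.9 to 5246 RPKM at baseline. Ccl3 was listed in 60 of 113 regression cells (53.1%, 43.5 to 62.6%) and 81 of 125 baseline cells (64.8%, 55.8 to 73.1%), and these intervals overlapped. The difference was -1.34, but it was below 0 in only 4 of 6 pairings (-2.91 to 0.63). Regression 93–111, in which 15 of 18 cells listed Ccl3 at a mean log2(RPKM + 1) of 5.71, lay above both baseline stretches (5.28 in 21–92 and 5.08 in 112–167), although its median cell listed the fewest genes of all stretches. The other regression stretches lay below both, at 2.37 in 1–20 and 3.81 in 168–244.

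Ccl5 had the lowest mean RPKM of the family in both groups, whereas by the share of listing cells it was lowest in regression and Ccl24 was lowest at baseline. It was listed in 9 of 113 regression cells (7.96%, 3.71 to 14.6%) and 22 of 125 baseline cells (17.6%, 11.4 to 25.4%), and its highest values were 28.8 RPKM in regression and 1862 RPKM at baseline. The highest cell alone held 46.6% of all baseline Ccl5 RPKM. In regression 1–20 the cells that listed Ccl5 were the consecutive library numbers 12 to 17. Its difference of -0.63 was below 0 in 5 of 6 pairings, while the log2 ratio of mean RPKM was -4.09 and rests on few cells. The regression library left out for listing 835 genes, the one with Cd3d, Cd3e and Cd4, had 6691 RPKM of Ccl5 and listed no other member. T cell and NK cell markers were scarce in the kept cells: no cell of either group listed 3 or more of 6 T cell markers, and 1 regression and 0 baseline cells listed 3 or more of 8 NK cell markers. That cell listed Ccl5. At least 1 T cell marker was listed in 4 of 9 regression cells with Ccl5 and 6 of 104 others, but in 2 of 22 and 16 of 103 at baseline. For NK cell markers it was 2 of 9 and 2 of 104 in regression, and 6 of 22 and 11 of 103 at baseline. For dendritic cell markers it was 1 of 9 and 9 of 104 in regression, and 11 of 22 and 12 of 103 at baseline.

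Ccl6 and Ccl9 went the other way. Ccl6 ran from 2.87 through a median of 2717 to 25947 RPKM in regression, and from 0 through a median of 606 to 11343 RPKM at baseline. It was listed in 113 of 113 regression cells (100%, 96.8 to 100%) and 114 of 125 baseline cells (91.2%, 84.8 to 95.5%), and 9 regression cells lay above every baseline cell. The difference was 2.60 (10.80 ± 2.56 in regression and 8.20 ± 3.87 at baseline, SD over cells), above 0 in 6 of 6 pairings (1.29 to 3.68). On the scale of mean RPKM the gap was smaller, with a log2 ratio of 1.19. Cells at 1000 RPKM or more were 82 of 113 in regression and 48 of 125 at baseline. The whole range of values was shifted, with quartiles of 914 and 5808 RPKM in regression and of 61.8 and 2394 RPKM at baseline. Among listing cells alone, the difference in mean log2(RPKM + 1) was 1.82.

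Ccl9 had a still higher difference of 2.82 (8.41 ± 2.47 in regression and 5.59 ± 3.96 at baseline, SD over cells), above 0 in 6 of 6 pairings (0.78 to 4.41). Its RPKM ran from 0 through a median of 603 to 3327 in regression, and from 0 through a median of 60.3 to 2987 at baseline. Listing cells numbered 110 of 113 regression cells (97.3%, 92.4 to 99.5%) and 99 of 125 baseline cells (79.2%, 71.0 to 85.9%). The highest cells of the groups were close, and only 3 regression cells lay above every baseline cell, so the log2 ratio of mean RPKM was 0.91. Regression 93–111 was lowest of the regression stretches in both genes, with means of 9.66 for Ccl6 and 6.79 for Ccl9, and still above both baseline stretches.

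Ccl24 was higher in regression mainly through 1 stretch. It was listed in 31 of 113 regression cells (27.4%, 19.5 to 36.6%) and 14 of 125 baseline cells (11.2%, 6.26 to 18.1%), so the intervals narrowly missed each other, and its difference was 1.28. In regression 1–20 it was listed in 12 of 20 cells at a mean log2(RPKM + 1) of 5.17, against 2 of 18 cells and 0.53 in 93–111, 17 of 75 cells and 1.52 in 168–244, 7 of 69 cells and 0.56 in baseline 21–92, and 7 of 56 cells and 0.93 in baseline 112–167. The difference was above 0 in 4 of 6 pairings, and without regression 1–20 it was 0.60, under the threshold of 1. The highest cell reached 2843 RPKM in regression and 1310 RPKM at baseline. All 14 baseline cells that listed Ccl24 listed 3 or more of 8 resident arterial macrophage markers (such as Lyve1, Folr2 and Cbr2), against 49 of the 111 other baseline cells; in regression it was 20 of 31 listing cells and 34 of 82 others. Cells that listed Ccl24 also listed more genes than the others, with medians of 2872 against 2461 at baseline and 2668 against 2324.5 in regression. The part of this in the marker counts was not tested. Eosinophil markers did not accompany Ccl24, since no cell of either group listed 3 or more of 6.

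**Figure D2:**
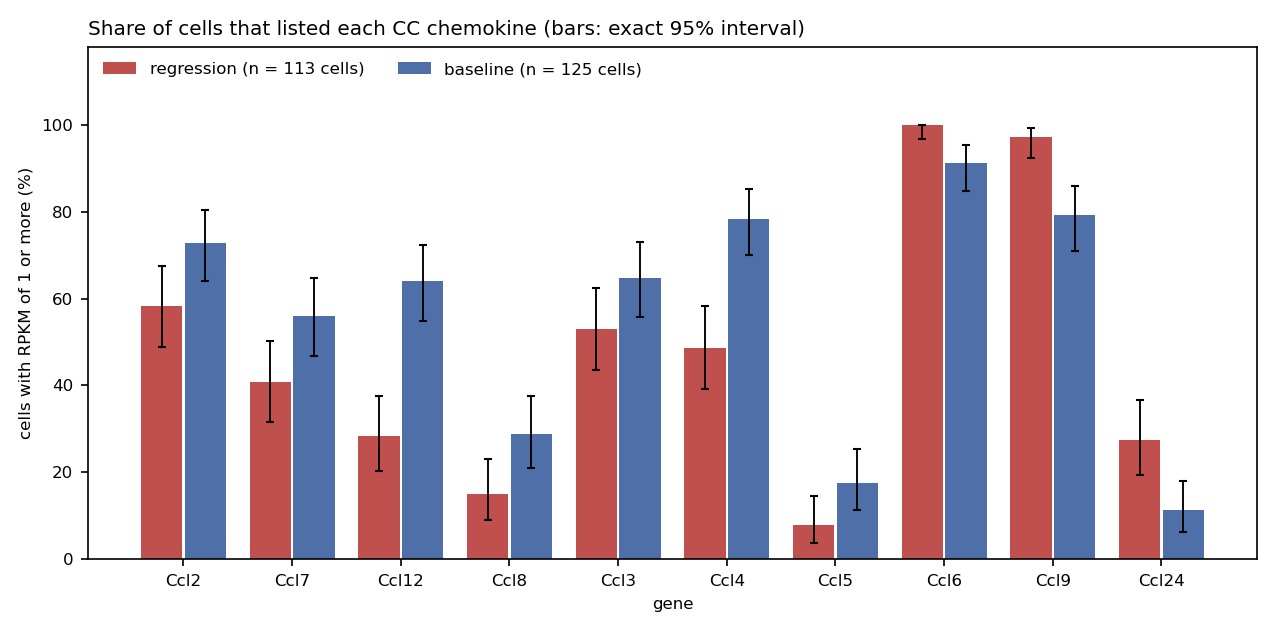
Bars give the percentage of cells with RPKM of 1 or more for each gene in regression (red, 113 cells) and baseline (blue, 125 cells), and black lines the exact 95% binomial interval. Ccl12 and Ccl4 have intervals that do not overlap and lie lower in regression, while Ccl6, Ccl9 and Ccl24 have intervals that do not overlap and lie higher in regression.

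The intervals of the listing shares did not overlap and lay lower in regression for 2 of the 10 members, against 3.16% of the 9299 genes, and lay higher for 3, against 2.3%. Among the 9 members and 3946 genes left at the 25% filter it was again 2 and 3 members, against 5.42% and 4.11% of genes.

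Because RPKM is scaled by length, members can be set against each other within a cell. The summed RPKM of the 10 genes ran from 73.1 through a median of 5479 to 26243 in regression cells, and from 0 through a median of 4980 to 46390 in baseline cells. Its median share of all RPKM of a cell was 0.77% in regression and 0.74% at baseline. The medians of the total over all cells of a group were thus close, while the makeup was not. By stretch the median total varied, with 8727, 3837 and 5122 RPKM in regression 1–20, 93–111 and 168–244. It was 5731 and 4385 RPKM in baseline 21–92 and 112–167. Ccl6 and Ccl9 together made up a median of 87.3% of the sum in regression cells and 22.6% in baseline cells. Ccl2, Ccl7, Ccl12 and Ccl8 together made up 4.29% in regression and 32.4% at baseline, and Ccl3 with Ccl4 made up 0.49% in regression and 14.9% at baseline. By stretch, the medians of Ccl6 and Ccl9 together were 90.6%, 71.5% and 87.4% in regression 1–20, 93–111 and 168–244. They were 16.8% and 35.3% in baseline 21–92 and 112–167, so the stretch medians of the groups did not overlap. Single cells did: regression cell 94 had log2(RPKM + 1) of 9.30 for Ccl3, 3.26 for Ccl6 and 2.71 for Ccl9. Baseline cell 126 held Ccl6 and Ccl9 and no other member. The part of Ccl2, Ccl7, Ccl12 and Ccl8 was 2.11%, 2.68% and 5.07% in these regression stretches, and 24.1% and 33.8% in the baseline stretches. That of Ccl3 and Ccl4 was uneven, with 0.0086%, 8.98% and 0.41% in the regression stretches and 19.8% and 9.23% in the baseline stretches, and regression 93–111 was thus close to baseline 112–167.

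Ccl6 was the most abundant member in 78 of 113 regression cells (69.0%, 59.6 to 77.4%) and 44 of 125 baseline cells (35.2%, 26.9 to 44.2%). Ccl4 held that place in 1 regression cell and 28 baseline cells, Ccl2 in 4 regression and 16 baseline cells, Ccl12 in 7 regression and 16 baseline cells, and Ccl9 in 12 regression and 5 baseline cells. Baseline cells were therefore split over several leading chemokines, whereas most regression cells had the same one. Within groups, Ccl6 led in 80.0%, 50.0% and 70.7% of the cells of regression 1–20, 93–111 and 168–244. Ccl4 led in 21 of 69 cells of baseline 21–92 (30.4%) and 7 of 56 cells of baseline 112–167 (12.5%).

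**Figure D3:**
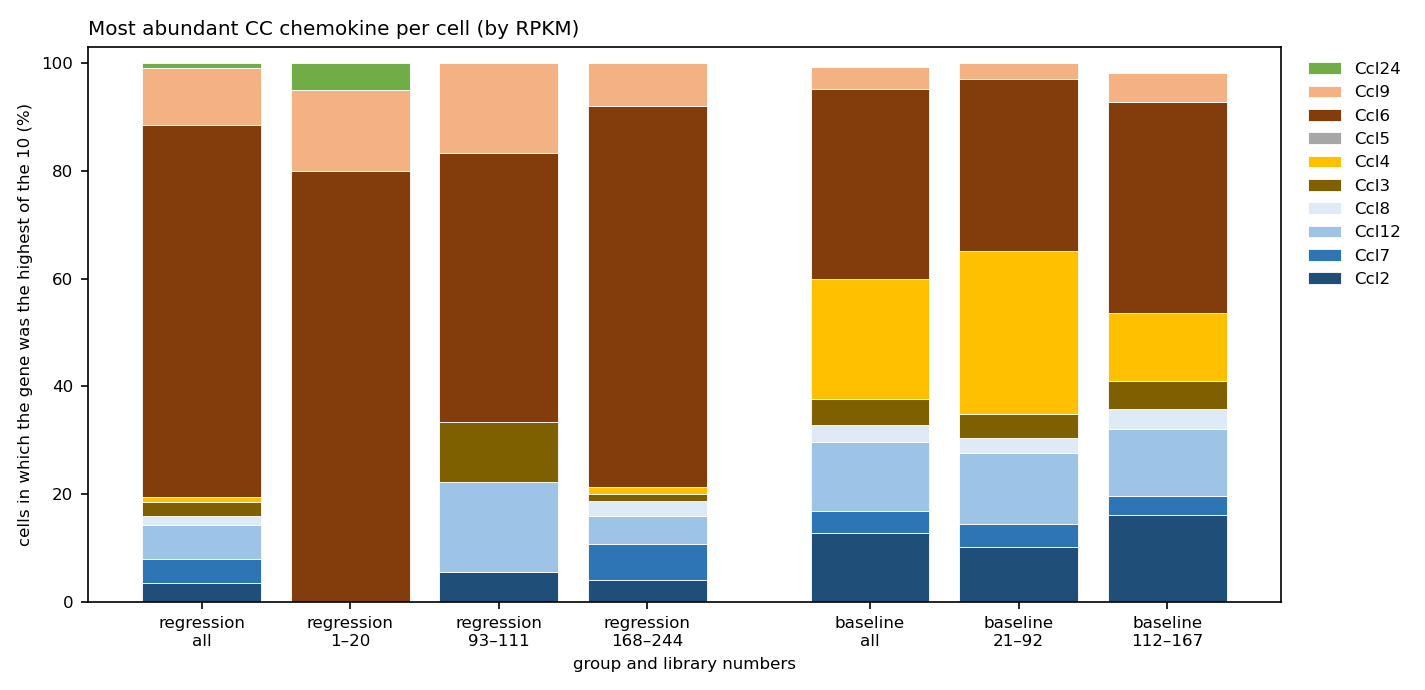
Stacked bars give the percentage of cells (vertical axis) in which each of the 10 genes had the highest RPKM of the family, for all cells of a group and for each stretch of library numbers. Ccl6 leads in 69.0% of regression cells and 35.2% of baseline cells, and the Ccl4 part is wide only at baseline, where it covers 22.4% of cells.

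Cells listed a median of 5 members in regression (2 to 8) and 6 at baseline (0 to 10). At least 3 members were listed in 101 of 113 regression cells (89.4%, 82.2 to 94.4%) and 116 of 125 baseline cells (92.8%, 86.8 to 96.7%). At least 6 members were listed in 43 of 113 regression cells (38.1%, 29.1 to 47.7%) and 73 of 125 baseline cells (58.4%, 49.3 to 67.2%). The 5 genes Ccl2, Ccl7, Ccl12, Ccl3 and Ccl4 were all listed in 4 regression cells and 30 baseline cells, and none of them in 16 regression cells and 5 baseline cells. The number of members listed moved with the number of genes listed, with a Spearman rho across cells of 0.30 in regression (n = 113) and 0.43 at baseline (n = 125). Its part in these counts was not tested, nor was that of the low values that ran by library number.

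In both groups 3 pairs of genomic neighbours varied together from cell to cell, while the neighbours Ccl12 and Ccl8 varied together little. Correlations here are Spearman's rho of RPKM across the cells of a group, a description over cells that share library preparation, depth and amplification noise. Of the pairs with both genes listed in at least 10% of cells, 3 of 36 reached 0.4 in regression (8.33%) and 5 of 45 at baseline (11.1%). Over all such gene pairs of the table, 0.0244% of 21717345 did so in regression and 0.013% of 22575840 at baseline. The 3 regression pairs were Ccl6 with Ccl9 (0.50 in regression, 0.69 at baseline), Ccl3 with Ccl4 (0.50 in regression, 0.50 at baseline) and Ccl2 with Ccl7 (0.48 in regression, 0.63 at baseline), and all 3 also reached 0.4 at baseline. Baseline added a couple of pairs that are not direct neighbours. These were Ccl2 with Ccl12 (0.24 in regression, 0.43 at baseline), between which Ccl7 lies, and Ccl7 with Ccl6 (0.07 in regression, 0.40 at baseline), which lie in different clusters. The neighbours Ccl12 and Ccl8 stood at 0.15 in regression and 0.05 at baseline. The lowest value was that of Ccl12 with Ccl6 in regression, at -0.28, against 0.06 at baseline. The median over the members' pairs was 0.08 in regression and 0.17 at baseline, against 0.04 over all gene pairs in both.

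**Figure D4:**
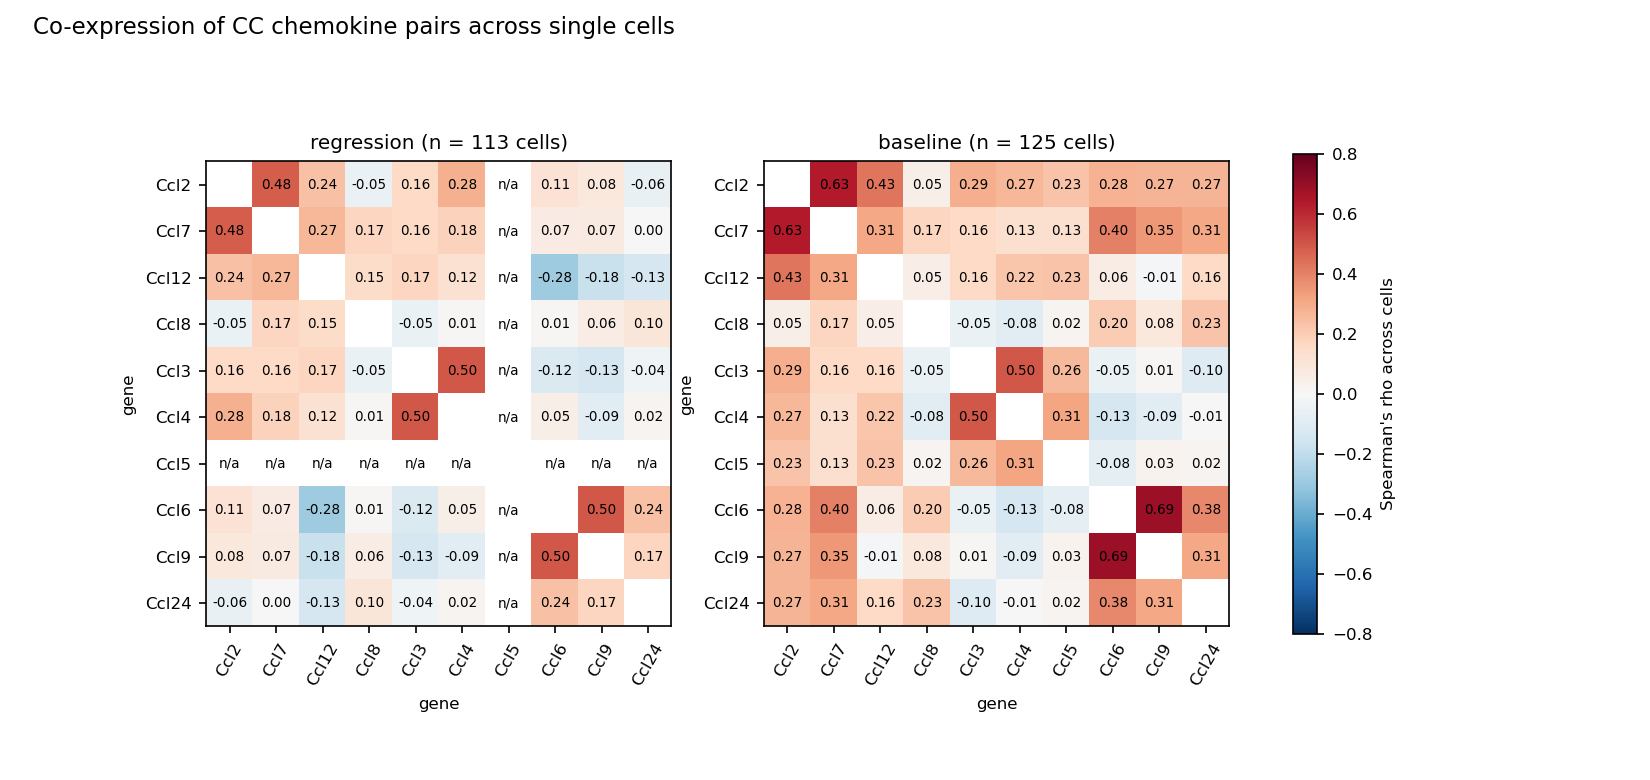
Each square gives Spearman's rho of 2 genes across the cells of a group, regression on the left (113 cells) and baseline on the right (125 cells), with red for positive and blue for negative values and n/a where a gene was listed in under 10% of cells. Ccl2 with Ccl7, Ccl3 with Ccl4 and Ccl6 with Ccl9 stand out in both groups, at 0.48, 0.50 and 0.50 in regression and 0.63, 0.50 and 0.69 at baseline.

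The 3 neighbour pairs differed in which partner was higher. Ccl3 and Ccl4 were both listed in 39 regression cells (65.0% of Ccl3 cells and 70.9% of Ccl4 cells) and 71 baseline cells (87.7% of Ccl3 cells and 72.4% of Ccl4 cells). In those cells Ccl3 was the higher in 23 of 39 in regression, with a median log2 difference of Ccl3 minus Ccl4 of 0.32, and in 21 of 71 at baseline, with a median of -1.13. The order of the pair thus turned between groups, although regression 168–244 alone had Ccl3 higher in 11 of 24 cells and a median of -0.40. Ccl6 exceeded Ccl9 in 93 of 110 regression cells and 84 of 98 baseline cells that listed both, with a median log2 difference of 2.30 in regression and 2.46 at baseline. That ratio was nearly the same in the groups although both genes differed. Ccl2 exceeded Ccl7 in 17 of 35 regression cells and 40 of 60 baseline cells that listed both.

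Within the stretches of 50 or more cells, the same 3 pairs stayed above 0.4. Ccl6 with Ccl9 reached 0.49 in regression 168–244, and 0.64 and 0.73 in baseline 21–92 and 112–167. Ccl3 with Ccl4 reached 0.44 in regression 168–244, and 0.55 and 0.45 in the baseline stretches. Ccl2 with Ccl7 reached 0.49 in regression 168–244, and 0.66 and 0.59 in the baseline stretches. Of these 3 stretches, Ccl24 reached 0.4 only in baseline 112–167, with Ccl9 (0.53), Ccl6 (0.50) and Ccl7 (0.43), and 7 of the 56 cells there listed it. In regression 1–20 and 93–111, with 20 and 18 cells, only counts were taken.

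**Figure D5:**
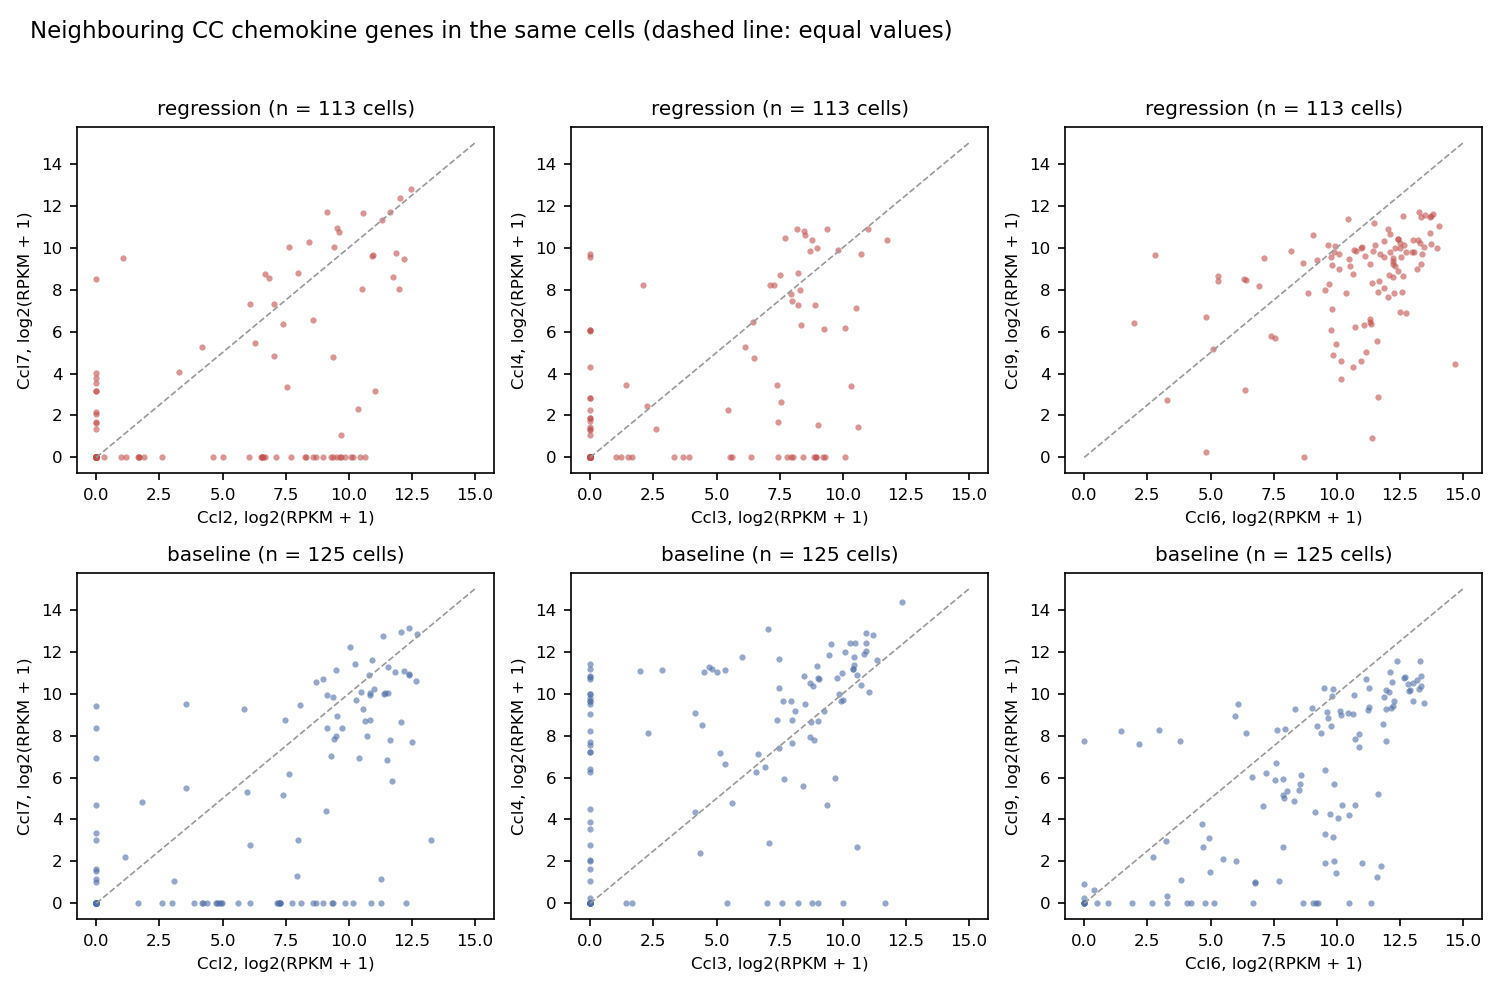
Each point is 1 cell, placed by log2(RPKM + 1) of 2 neighbouring genes, for regression (top row, red, 113 cells) and baseline (bottom row, blue, 125 cells); the dashed line marks equal values. In the middle panels, Ccl3 is the higher in 23 of the 39 regression cells that listed both genes and in 21 of 71 baseline cells, and most points of the right panels lie under the line, where Ccl6 is the higher.

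Outside the family, the genes most like each member were sought among 6481 genes by mean rho over the 3 stretches of 50 or more cells (200 cells), or over 2 of them (125 cells) where a gene was listed in too few cells of the other. Ccl4 was closest to Nfkbiz, an inducible regulator of NF-kB (0.41), Cd72, an inhibitory surface receptor (0.37), and Tnf, the cytokine tumour necrosis factor (0.37). Ccl3 was closest to the ferritin heavy chain gene Fth1 (0.38), the interferon-induced chemokine Cxcl10 (0.38, over 2 stretches) and the repressor Tgif1 (0.34). Ccl7 was closest to the folate receptor Folr2 (0.49), the lectin Mgl2 (0.45, over 2 stretches) and platelet factor Pf4 (0.42), and Ccl2 to the mannose receptor Mrc1, Ifi27l2a and Pf4 (0.34 for each of these after rounding). Ccl6 was closest to lysozyme Lyz1 (0.52, which shares much of its sequence with Lyz2 and is uncertain), Ifitm3 (0.50) and Gda (0.45), and Ccl9 to Mgl2 (0.51, over 2 stretches), Ifitm3 (0.41) and Cbr2 (0.40). Ccl12 was closest to Aoah, Fcrls and Ntpcr (0.36 to 0.37), Ccl8 to Sepp1, Gas6 and Wwp1 (0.36 to 0.40), and Ccl24 to Pkp4 (over 2 stretches), Fcna and Folr2 (0.39 to 0.40). These means cover unlike stretches: rho ran from 0.04 to 0.70 for Ccl24 with Folr2 and from 0.12 to 0.71 for Ccl24 with Fcna, and 7 of the 27 pairs named here were under 0.2 in at least 1 stretch. Ccl5 was listed too rarely for this ranking. Likeness to Ccl9 did not mean a like difference: Mgl2 was 3.23 lower in regression, whereas Ccl9 was 2.82 higher.

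The receptors of these ligands were themselves uneven. Of 15 CC receptor genes 4 passed the 5% filter, and of these 2 were higher and 1 lower by 1 or more. Of all genes that passed it, 2.43% were higher and 3.17% lower. Ccr1, which Ccl3, Ccl5, Ccl6 and Ccl9 bind, was listed in 86 of 113 regression cells and 39 of 125 baseline cells, with a difference of 3.15. Ccr2, bound by Ccl2, Ccl7 and Ccl12, was listed in 100 of 113 regression cells and 90 of 125 baseline cells, with a difference of 2.03. The chemerin-binding receptor Ccrl2 differed by -1.09. Ccr3, the receptor of Ccl24, was listed in 0 of 113 regression cells (up to 2.65% allowed by a count of 0) and 2 of 125 baseline cells, and Ccr8 in 0 cells of either group. Of 13 further CC chemokines only Ccl27a reached the 5% filter, with 1 regression cell, 7 baseline cells and a difference of -0.29; Ccl19 was listed in 1 regression and 3 baseline cells.

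Genes upstream of inducible chemokines moved in no common direction. Of 17 genes of the NF-kB pathway and its feedback, 3 were lower and 1 higher by 1 or more (median -0.02); Ikbke, a kinase of the pathway, was 1.84 higher and the subunit Rel 1.54 lower. Of 11 NF-kB target cytokine and surface genes, 2 were lower and 1 higher (median 0.11), with Cd83 at -3.98 and Tnf at -1.50. Of 9 genes of chemokine mRNA decay, 1 was lower and 0 higher (median 0.11), namely Zfp36 (-1.12), which encodes the decay factor tristetraprolin, with the phosphatase gene Dusp1 next at -0.88. Of 10 interferon response genes none passed 1 in either direction (median -0.57; Mx1 -0.78, Cxcl10 -0.75). Of 9 type 2 and STAT6 target genes, 2 were lower and 2 higher (median -0.23), with Arg1 at 7.56 and Mgl2 at -3.23. The background shares of these counts are the 3.17% and 2.43% given above.

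Signs of cell handling and of other cell states moved alongside. Of 14 immediate early genes, which enzymatic digestion can induce, 3 were lower and 1 higher by 1 or more in regression (median -0.78). Over all genes the shares were 3.17% lower and 2.43% higher. Btg2 stood at -2.77 and Ier3 at 2.66. The part of the immediate early genes in the lower values of Ccl2, Ccl3 and Ccl4 was not tested. Markers of classical monocytes (3 or more of 6) were listed in 31 of 113 regression and 21 of 125 baseline cells, with summed RPKM of 0 to 15386 (median 384) in regression and 0 to 6847 (median 210) at baseline. Markers of resident arterial macrophages (3 or more of 8) were listed in 54 of 113 regression and 63 of 125 baseline cells, with summed RPKM of 0 to 27170 (median 1550) in regression and 0 to 8430 (median 281) at baseline, and Timd4 at 0 in regression. The list did not move one way: Pf4 (difference 3.09, up to 27100 RPKM in a regression cell) and F13a1 (1.52) were higher in regression, and the differences of the other 6 ran from -0.96 for Cbr2 and -0.91 for Lyve1 to -0.16 for Folr2. Among baseline cells, 49 of the 70 that listed Ccl7 had 3 or more resident markers, against 14 of the 55 others, and in regression it was 29 of 46 against 25 of 67. For Ccl4 no such gap was seen at baseline, with 49 of 98 listing cells and 14 of 27 others. Baseline cells that listed Ccl7 also listed more genes (median 2671 against 2217 in the others), as did those that listed Ccl4 (2624 against 2223). The part of the number of genes listed in these marker counts was not tested. Neutrophil markers (3 or more of 8) were listed in 14 regression and 5 baseline cells, with summed RPKM of 0 to 29863 (median 11.3) in regression and 0 to 17711 (median 2.91) at baseline. Ly6g, Camp and Ngp were at 0 in both groups, and Retnlg was listed in 0 regression cells and 1 baseline cell. S100a8 was listed in 27 regression and 11 baseline cells, S100a9 in 19 and 8, Csf3r in 53 and 41, and Cxcr2 in 47 and 50. The part of any of the markers of this paragraph in the chemokine values was not tested.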

How the data were processed

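Cells were captured on a Fluidigm C1 circuit, with SMARTer cDNA and Nextera XT libraries, per the labels' protocols. That protocol text names islet cells, and every other label names macrophages. The authors deposited RPKM values for 24475 genes in 244 libraries. The submitters' processing notes name CASAVA 1.8.2, FastQC and the mm10 build. The aligner, annotation and RPKM program were not given in the sources used here. SMARTer cDNA has no molecular identifiers, so each value includes amplification noise, and an RPKM of 0 can be a missed transcript: Gapdh was at 0 in 0 regression and 4 baseline cells. Doublets were not called, and cells could not be thinned to 1 depth because the values are not counts.

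Libraries of 1 group whose log2 values correlated above 0.9 were averaged to 1 cell: numbers 57 and 58 (0.992), 64 and 65 (0.996), and 70 and 71 (0.997), against at most 0.654 for any other pair. A cell was kept if 1000 or more genes reached RPKM of 1. Values were compared as log2(RPKM + 1), which understates differences of low genes. No test was run, since each library is 1 cell and no animal is named. Shares have exact (Clopper-Pearson) 95% intervals. Beside a count of 0 stands the share of 3 cells. Depth was estimated from the step of 1 read in low values of 5727 genes with 1 transcript; in the median library 60.4% of low values were whole reads within 0.1. Correlations were computed in scipy 1.17.1 with pandas 2.3.3. The differences and correlations were tested on simulated data.

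The members and gene lists were chosen with earlier results of these data known. Genes named outside the family were the 3 nearest to each member and the 2 largest differences of each list; Ccr3, Ccr8 and Ccrl2 were named after their values were seen. Alternatives tried were other cell filters, pseudocounts, scalings, listing thresholds, gene filters and thresholds, and leaving out each stretch.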

Additional observations from a re-analysis of the deposited data

How the results depend on the processing

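No paired analysis was possible because the libraries of the groups share no sample number and no result comes from a test. Of 6 members lower and 3 higher by 1 or more, 6 and 3 were found again with all cells, unaveraged copies, a pseudocount of 0.1, rescaling to a sum of 1000000, other listing thresholds and other gene filters. Over all genes the shares in these settings ran from 1.2% to 7.37% lower and from 0.92% to 5.6% higher. At a difference of at least 2, 2 members were lower and 2 higher, against 0.624% and 0.43% of all genes. The median member difference of -1.43 became -1.82 in cells with at least 2000 genes, -1.87 with a pseudocount of 0.1, -0.97 with a pseudocount of 10, -0.97 as log2 ratio of mean RPKM and -1.21 without regression cells 1–20. As log2 ratio of mean RPKM, 4 members were lower and 2 higher, Ccl9 had 0.91, and 14.9% of all genes were lower by 1 or more and 14.1% higher. With a pseudocount of 10, 5 members were lower and 2 higher, against 1.05% and 0.94% of all genes. Without regression cells 1–20, 2 members were higher, against 2.18% of all genes, since Ccl24 was at 0.60. The share of baseline cells with 3 or more members was 96.9% in cells with at least 2000 genes and 97.1% without baseline cells 112–167. No member's difference changed sign under any alternative; the causes of these shifts were not tested. Ccl4 had the largest difference in the list except without baseline cells 21–92 (-2.96, with Ccl12 at -3.33 and Ccl9 at 3.32) and as log2 ratio of mean RPKM (-2.77, with Ccl5 at -4.09). At the median depth of regression libraries, 1 read was worth 2.10 RPKM in Ccl8 and 2.00 RPKM in Ccl12, so values near the listing threshold were not resolved there.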

Other observations

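Of the 3 regression libraries left out for few genes, 2 held a single member at a high level. Number 111, with 754 genes, had 11240 RPKM of Ccl6, 8.03 of Ccl3, 4.81 of Ccl4 and 3.17 of Ccl9, and listed 4 of 8 macrophage markers. Number 208, with 835 genes, had 6691 RPKM of Ccl5, no other member, and 3 of 6 T cell markers. Number 217, with 832 genes, had 21.4 RPKM of Ccl4 and 1.23 of Ccl6, and 4 of 8 neutrophil markers, S100a8 and S100a9 among them.

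A few cells carried much of some transcripts. At least 50% of all Ccl8 RPKM was held by 1 cell in regression and 2 cells at baseline, that of Ccl12 by 4 cells in regression and 7 at baseline, and that of Ccl7 by 5 cells in regression and 7 at baseline. For Ccl6 it took 20 cells in regression and 14 at baseline, and for Ccl9 it took 21 cells in regression and 15 at baseline.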
